A study of Mus musculus with 24 samples.

Results

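The genes described here encode receptors for the catecholamines dopamine, noradrenaline and adrenaline, measured in the hippocampus of P9 mouse pups. They were the 9 genes Drd1a, Drd2, Drd3, Drd4, Drd5, Adra1a, Adra2a, Adra2c and Adrb1, chosen by name. The Agilent array carried 10 probesets for these 9 genes, of 55681 probesets in all, with 2 for Adrb1 and 1 for each of the other genes. The array is a 1-colour design, so each array held the RNA of 1 sample and each probeset gave 1 intensity per array.

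All pups were C57BL/6 mice labelled male and killed on P9, and the array of 1 of them went against that label. The 5 untreated controls (Con) were housed with the dam and handled as little as possible. From P5 the 5 pups of the MS2 group and the 5 of the MS5 group were isolated from the dam each day in a warmer, breathed pure nitrogen and then pure oxygen to simulate apnea, and were injected with morphine under the skin before each apnea, at 2 mg/kg in MS2 and 5 mg/kg in MS5. The treated pups were littermates of controls and went back to the home cage after each session. No group had the stress without morphine or morphine without the stress, so a difference from Con cannot be told apart into the drug and the stress, whereas MS5 and MS2 shared the stress and differed in dose. Each array held the hippocampi of a single pup, and because this is bulk tissue, fewer cells of a type and less RNA per cell cannot be told apart.

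Dopamine receptors fall into a D1-like family, Drd1a (now Drd1) and Drd5, which raise cyclic AMP through the stimulatory G proteins Gs and Golf, and a D2-like family, Drd2, Drd3 and Drd4, which lower it through Gi and Go. Alpha-1 receptors such as Adra1a act through Gq, alpha-2 receptors such as Adra2a and Adra2c act through Gi, and the beta receptor Adrb1 acts through Gs. In the hippocampus noradrenaline comes from fibres of the locus coeruleus and modulates excitability and memory. Drd1a and Drd2 are best known as abundant transcripts of the projection neurons of the striatum, a neighbouring forebrain structure.

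Each probe was a 60-base oligonucleotide, placed on the mouse build mm9 by the scanner files. The Drd1a probe lay on the minus strand at chr13:54147277-54147336. The other probes lay on the plus strand, Drd2 at chr9:49215047-49215106, Drd3 at chr16:43822893-43822952, Drd4 at chr7:148480683-148480742, Drd5 at chr5:38713278-38713337, Adra1a at chr14:67352013-67352072, Adra2a at chr19:54123363-54123422 and Adra2c at chr5:35624269-35624328. The Adrb1 probes lay at chr19:56797242-56797301 (A_51_P203827) and chr19:56799215-56799274 (A_52_P322181).

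The probes of the D2-like receptors are shown because Drd2 and Drd3 moved together across the arrays and these family members are close relatives. Capitals mark the bases that were identical between the Drd3 and Drd4 probes when they were aligned without gaps, and the Drd2 probe is printed without capitals.
Drd2: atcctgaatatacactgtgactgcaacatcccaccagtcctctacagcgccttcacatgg
Drd3: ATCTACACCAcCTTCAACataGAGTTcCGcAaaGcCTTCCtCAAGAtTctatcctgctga
Drd4: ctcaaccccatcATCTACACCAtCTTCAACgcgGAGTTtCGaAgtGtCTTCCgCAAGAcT
The Drd3 and Drd4 probes shared 37 of 48 aligned bases (77.1%), the closest pair among the 10 probes by count and by percent. Drd2 and Drd3 shared 22 of 57 at their best alignment, and no other pair shared more than 26 bases, which was the count for Drd1a and Adra2c over 60. Whether a probe also binds the transcript of another receptor was not tested.

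All 10 receptor probesets were well above background on all 15 arrays, and none was saturated. Levels are log2 of normalized signal, and a level is compared only between arrays, never between probes, because each probe binds with its own strength. The call of the study was applied, in which a probeset must differ over 1.5-fold and have an unadjusted p below 0.05, here from limma, a linear model fitted over all probesets. Of the 10 receptor probesets, 0 passed this call in any of the 3 contrasts, and 0 had an unadjusted limma p under 0.05. Among all probesets, 0.0233% passed the call in MS2 versus Con, 0.228% in MS5 versus Con and 0.129% in MS5 versus MS2. After Benjamini-Hochberg adjustment over all probesets 0% passed in each contrast, with 2324, 2176 and 2211 probesets at an unadjusted p under 0.05 and a smallest adjusted p of 0.629. The groups overlapped at all 10 receptor probesets in each contrast, beside non-overlap at 0.699%, 0.832% and 0.625% of all probesets. The median difference of the 10 probesets was 0.03 in MS2 versus Con, 0.08 in MS5 versus Con and 0.08 in MS5 versus MS2 (log2), where the medians over all probesets were within 0.01 of 0.

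**Figure D1:**
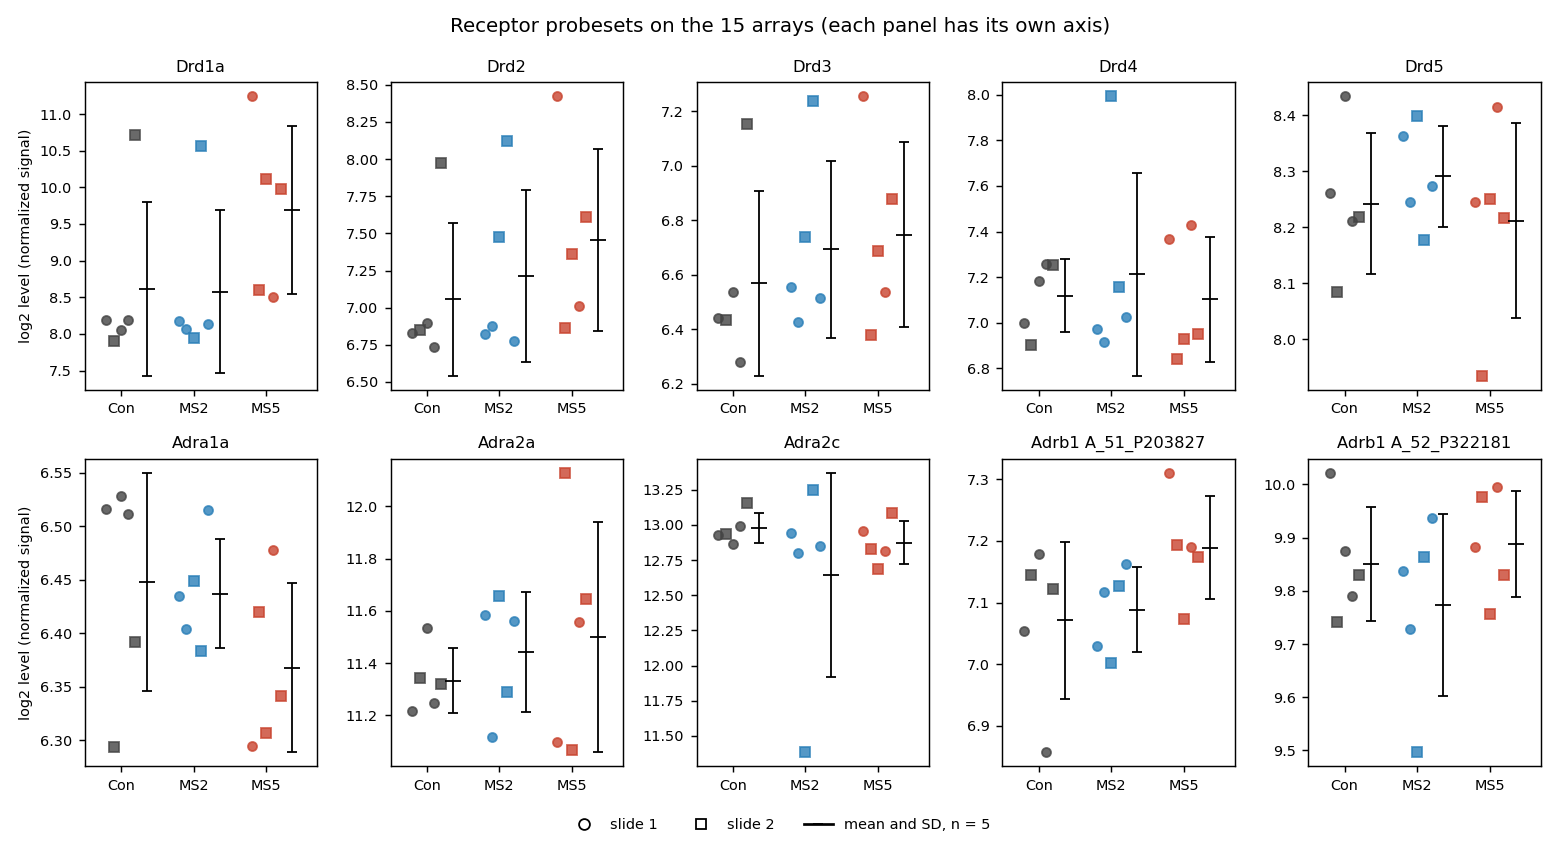
Log2 level of each receptor probeset on each array (vertical axis, 1 panel per probeset, each with its own range) in the Con, MS2 and MS5 groups. Circles are arrays of slide 1, squares are arrays of slide 2, and bars are the group mean with the SD of 5 arrays. Drd1a stands between 7.90 and 8.60 on 10 arrays and between 9.97 and 11.24 on the other 5, which come from all 3 groups.

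Some arrays stood apart from their groups or labels, and they bear on the receptors. Control replicate 19, MS2 replicate 5 and MS5 replicates 8, 12 and 14 carried the highest levels of the markers of striatal projection neurons. MS2 replicate 4 carried the lowest level of hippocampal principal neuron markers, a mean of 10.19 over 8 genes beside 12.04 to 12.49 on the other arrays, and the highest of catecholamine neuron markers, 8.18 beside 7.17 to 7.45. MS2 replicate 5 had a median spot signal of 51.0, where the other arrays had 100.4 to 127.9. MS5 replicate 9 went against its male label, with Xist, the transcript of the inactive X chromosome, at 11.34 beside 5.895 to 6.078 on the 14 other arrays, and the Y-linked Ddx3y at 6.25, below all other arrays. By group, 10 of 11 choroid plexus markers passed the call as lower in MS5 versus Con, with a median difference of -1.32 (log2). Their mean level was 10.17 and 9.13 on MS5 replicates 9 and 14, and 11.68 to 12.41 on the other MS5 arrays. In Con it was 11.99 to 12.96. Of the thalamus and hypothalamus markers, 3 of 8 passed the call as higher in MS5 versus Con. Both lists include genes that the study had already reported from these same arrays, as lower and as higher in MS5. These counts are therefore not independent of that report. The part of both lists in the receptor levels was not tested.

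Among the D1-like receptors, Drd1a had the widest range of all 10 probesets. In Con it measured 8.20, 7.90, 8.06 and 8.19 on replicates 15 to 18 and 10.72 on replicate 19. In MS2 it measured 8.18, 8.07, 7.94, 10.56 and 8.13 on replicates 1, 3, 4, 5 and 7. In MS5 it measured 11.24, 8.60, 10.11, 8.50 and 9.97 on replicates 8, 9, 12, 13 and 14. A single array was high in Con and a single array in MS2, while 3 of 5 were high in MS5, and the groups overlapped. The high arrays stood out before normalization too, with mean spot signals of 1562 on control replicate 19, 490 on MS2 replicate 5, and 2463, 1127 and 884.6 on the 3 high MS5 arrays, beside 217.2 to 361.2 on the other 10.

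The mean of Drd1a was 9.69 ± 1.15 in MS5, 8.61 ± 1.18 in Con and 8.58 ± 1.11 in MS2 (SD, n = 5). The difference of MS5 from Con was 1.07 ± 0.66 (SE, log2), a 2.1-fold ratio with a 95% interval of -0.34 to 2.48, and its two-sided exact permutation p was 0.198. From MS2 it was 1.11 ± 0.66 with an exact p of 0.159, and MS2 differed from Con by -0.04 with an exact p of 0.77. The limma p were 0.126, 0.114 and 0.956, and the adjusted p was 1 in each. The 95% interval of each of the 3 differences included 0.

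These Drd1a differences depended on which arrays were used. Within slide 1, which held 3 Con, 3 MS2 and 2 MS5 arrays, MS5 minus Con was 1.73 and past the call, with an exact permutation p of 0.1, the smallest that this split allows. Slide 2 held control replicates 16 and 19, MS2 replicates 4 and 5 and 3 MS5 arrays. Within slide 2 MS5 minus Con was 0.25 with an exact permutation p of 0.9. With the slide as a block it was 0.94 and did not pass. Without control replicate 19 the difference was 1.60 and past the call, and without MS2 replicate 5 that of MS5 from MS2 was 1.61, also past it. Without MS5 replicate 8 the difference from Con was 0.68 and did not pass. In another fit the 5 arrays highest in striatal markers were left out, a choice made after seeing the data. The 2 remaining MS5 arrays, replicate 9 at 8.60 and replicate 13 at 8.50, lay above the 4 remaining arrays of Con and of MS2. The difference from Con was then 0.47, a 1.38-fold ratio that is under the fold of the call. The exact permutation p was 0.0667, the smallest that 2 arrays against 4 allow. The 5 arrays left out were also the 5 highest in Drd1a, so this p cannot be read as a test.

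The second D1-like receptor, Drd5, which binds dopamine with high affinity and is found in hippocampal neurons, varied little. It measured 8.26, 8.08, 8.43, 8.21 and 8.22 in Con, 8.36, 8.24, 8.40, 8.18 and 8.27 in MS2, and 8.24, 7.93, 8.25, 8.41 and 8.22 in MS5. The lowest value was that of MS5 replicate 9, and all 3 groups spanned the same levels. MS5 differed from Con by -0.03 ± 0.08 (SE, log2) and from MS2 by -0.08 ± 0.08, and MS2 from Con by 0.05 ± 0.08, with exact permutation p of 0.802, 0.468 and 0.516. The 95% interval of MS5 minus Con was -0.20 to 0.14, narrower than that of any other dopamine receptor.

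Drd2, the D2-like receptor that is also the autoreceptor of dopamine neurons, was dim, with 6.83, 6.85, 6.90, 6.74 and 7.97 in Con. It measured 6.82, 6.88, 7.48, 8.12 and 6.77 in MS2. In MS5 the values were 8.42, 6.86, 7.36, 7.01 and 7.61. Control replicate 19, MS2 replicate 5 and MS5 replicates 8 and 14, all high in Drd1a, were also high in Drd2, and MS2 replicate 4, which was not high in Drd1a, joined them. MS5 differed from Con by 0.40 ± 0.33 (SE, log2; 95% interval -0.31 to 1.10) with an exact permutation p of 0.302, from MS2 by 0.24 with an exact p of 0.5, and MS2 from Con by 0.16 with an exact p of 0.603. Within slide 1 MS5 minus Con was 0.90 and past the call, with an exact permutation p of 0.1. Within slide 2 it was -0.13 with an exact permutation p of 1, so the direction was not the same on both slides. Control replicate 19 was 1 of the 2 Con arrays of slide 2.

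Drd3, which is best known from the ventral striatum, followed Drd2. It measured 6.44, 6.43, 6.54, 6.28 and 7.15 in Con, 6.55, 6.43, 6.74, 7.24 and 6.51 in MS2, and 7.26, 6.38, 6.69, 6.54 and 6.88 in MS5. The 5 highest arrays for Drd3 were those for Drd2, namely control replicate 19, MS2 replicates 4 and 5 and MS5 replicates 8 and 14. On MS2 replicate 5, the array of the lowest median spot signal, this held only after normalization. Its mean spot signal was 93.12 for Drd2 and 51.43 for Drd3. The others of these 5 arrays had 151.8 to 327.8 for Drd2 and 75.24 to 123.4 for Drd3. Arrays outside these 5 had 63.29 to 143.8 and 37.03 to 73.23. For Drd3, MS5 differed from Con by 0.18 ± 0.19 (SE, log2), with an exact permutation p of 0.429. Within slides it differed by 0.48 on slide 1 and -0.14 on slide 2. The background step adds a constant of 50 to each signal, which shrinks the differences of dim probes such as those of Drd2 and Drd3. With the scanner's own processed signal, which has no such constant, the difference of MS5 from Con was 0.68 for Drd2, with a limma p of 0.237, and 0.53 for Drd3, with a limma p of 0.312, and neither passed the call.

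**Figure D2:**
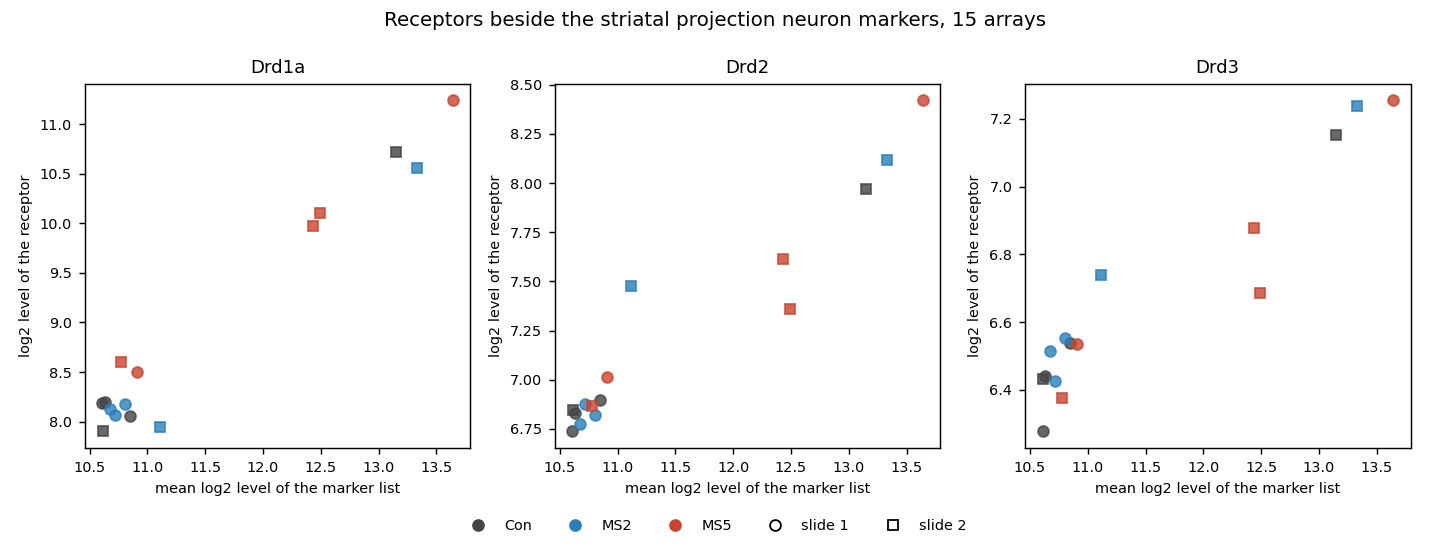
Log2 level of Drd1a, Drd2 and Drd3 (vertical axes) against the mean log2 level of 8 striatal projection neuron markers (horizontal axis), with 1 point per array, colours for the Con, MS2 and MS5 groups, and circles and squares for slides 1 and 2. The 5 arrays with marker means from 12.44 to 13.64 are those highest in Drd1a, and the other 10 lie between 10.61 and 11.11.

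The arrays high in Drd1a were the same 5 arrays that were high in striatal genes. The list of 8 striatal projection neuron markers included Ppp1r1b, Adora2a, Rgs9, Pde10a, Penk and Tac1, and all 8 were well above background on all arrays. Its mean level was 13.15 on control replicate 19, 13.33 on MS2 replicate 5 and 13.64, 12.49 and 12.44 on MS5 replicates 8, 12 and 14, beside 10.61 to 11.11 on the other 10 arrays. These 5 arrays were the 5 highest for 7 of the 8 markers, and for Tac1, which encodes substance P, 4 of the 5 were. Ppp1r1b, which encodes the dopamine-regulated phosphatase inhibitor DARPP-32, measured 13.87 to 15.57 on them and 10.73 to 12.18 on the others. By group, the median of the array means was 10.63 in Con, 10.80 in MS2 and 12.44 in MS5, with a highest array of 13.15, 13.33 and 13.64, so the groups overlapped. In MS5 versus Con 8 of 8 markers had a higher mean and 0 passed the call, with a median difference of 0.77 (log2). Other lists moved with these arrays as well. The same 5 arrays held ranks 2 to 6 of 15 for the thalamus and hypothalamus markers, with means of 8.35 to 9.55, behind MS2 replicate 4 alone. For 6 oligodendrocyte markers, MS5 replicate 8 and control replicate 19 were the highest at 13.04 and 12.81, while MS5 replicate 14 ranked 10 of 15 at 11.16. The part of these cells in the Drd1a, Drd2 and Drd3 levels was not tested. Without the 5 arrays, 0 receptor probesets passed the call in any contrast, and the Drd2 and Drd3 differences of MS5 from Con were 0.11 and 0.03.

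The genes whose pattern was most like each receptor were found by Pearson's r over the 15 arrays, after the mean of each group was taken off, among 22616 probesets of other named genes that were well above background on all arrays. The points share the arrays and the normalization, and no test was made. For Drd1a these were D830015G02Rik (r = 0.992), Rgs9 (0.987), which encodes a regulator of G protein signalling, and Rarb (0.987), a retinoic acid receptor. For Drd2 they were Gdnf (0.982), a growth factor that sustains dopamine neurons, Crabp1 (0.981), a binding protein for retinoic acid, and Adcy5 (0.981), a major adenylyl cyclase of the striatum. For Drd3, Scn4b (0.977), a sodium channel subunit, and Crabp1 (0.975) were the closest. When the 2 arrays farthest from the median were left out, r for these 8 pairs lay between 0.954 and 0.988. Those arrays were control replicate 19 and MS5 replicate 8 for Drd1a, and MS2 replicate 5 and MS5 replicate 8 for Drd2 and Drd3. The rest of the 5 arrays highest in striatal markers stayed in, and the genes had been picked for their high r. These r therefore do not show whether the likeness holds without the high arrays.

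Drd4, the third D2-like receptor, known from frontal cortex and retina, did not follow Drd2. It measured 6.998, 6.90, 7.18, 7.26 and 7.25 in Con, 6.98, 6.92, 7.99, 7.16 and 7.03 in MS2, and 7.37, 6.84, 6.93, 7.43 and 6.95 in MS5. MS2 replicate 4 was highest by a wide margin, and the groups overlapped. The difference of MS5 from Con was -0.02 ± 0.18 (SE, log2), that of MS5 from MS2 -0.11 and that of MS2 from Con 0.09, with exact permutation p of 0.937, 0.738 and 0.841. Without MS2 replicate 4 the difference of MS2 from Con was -0.10. On the slides MS5 minus MS2 went opposite ways, 0.43 within slide 1 and -0.67 within slide 2, and the latter passed the call. Both had an exact permutation p of 0.1, the smallest that these splits allow. The MS2 arrays of slide 2 were replicates 4 and 5. The genes most like Drd4 were Afp (r = 0.952), 6430571L13Rik (0.951) and Rbp7 (0.951), and r was 0.895, 0.868 and 0.891 without MS2 replicate 4 and MS5 replicate 13.

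Among the adrenergic receptors, the alpha-1 receptor Adra1a was the least variable probeset of the 10. It measured 6.52, 6.29, 6.53, 6.51 and 6.39 in Con, 6.43, 6.40, 6.45, 6.38 and 6.52 in MS2, and 6.29, 6.42, 6.31, 6.48 and 6.34 in MS5. Values of all 3 groups were mixed within a range of 0.23. MS5 differed from Con by -0.08 ± 0.05 (SE, log2) with an exact permutation p of 0.198, and from MS2 by -0.07 with an exact p of 0.143. The signal was near the floor of the scale, 30.16 to 58.81 before background correction against a local background of 18 to 22, so a difference would be shrunk. With the offset at 0 the difference of MS5 from Con was -0.19 and did not pass the call. Entpd5 (r = 0.908), Foxred2 (0.902) and Vmn2r16 (0.902) were most like it.

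Adra2a and Adra2c are the inhibitory receptors through which noradrenaline limits its own release. Adra2a measured 11.22, 11.34, 11.54, 11.25 and 11.32 in Con, 11.58, 11.12, 11.66, 11.29 and 11.56 in MS2, and 11.10, 12.13, 11.07, 11.56 and 11.65 in MS5. The MS5 arrays were spread most, with MS5 replicate 9 above and MS5 replicates 8 and 12 below all other arrays. Between MS5 and Con the difference was 0.17 ± 0.17 (SE, log2), with an exact permutation p of 0.476, and 0.01 without MS5 replicate 9. The difference from Con was -0.01 within slide 1 and 0.28 within slide 2. Without the 5 arrays highest in striatal markers it was 0.51, a 1.42-fold ratio under the fold of the call. Its exact permutation p was 0.0667, the smallest that 2 arrays against 4 allow. The arrays left out were chosen after seeing the data and include MS5 replicates 8 and 12, the lowest in Adra2a. This p therefore cannot be read as a test. The 2 MS5 arrays left were replicate 13 and replicate 9, the highest of all arrays. Zfp354c (r = 0.92) and B3galnt1 (0.902) were among the genes most like Adra2a.

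Adra2c measured 12.93, 12.94, 12.87, 12.99 and 13.15 in Con, 12.94, 12.80, 11.38, 13.25 and 12.85 in MS2, and 12.96, 12.83, 12.68, 12.82 and 13.08 in MS5. All arrays but MS2 replicate 4 lay between 12.68 and 13.25, and 3 of 5 arrays in MS2 and 3 of 5 in MS5 lay below every Con array. MS2 differed from Con by -0.33 ± 0.25 (SE, log2; 95% interval -0.87 to 0.20), with an exact permutation p of 0.429, and by -0.02 without MS2 replicate 4. MS5 differed from Con by -0.10 with an exact p of 0.238. Neurl1a (r = 0.978), Klf16 (0.973) and Bcl11b (0.968), a transcription factor of forebrain projection neurons, were most like Adra2c, and r was 0.811, 0.822 and 0.714 without MS2 replicates 4 and 5.

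**Figure D3:**
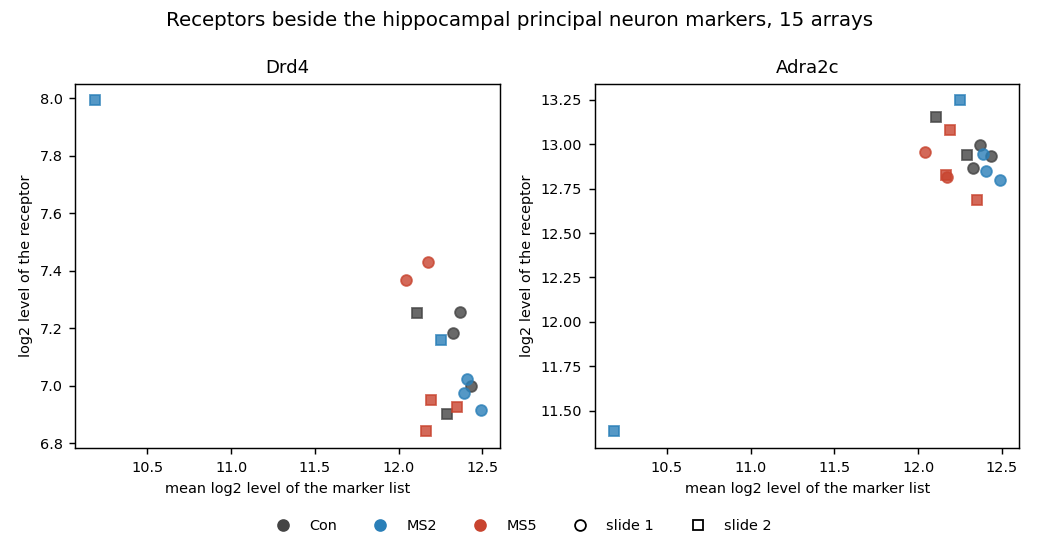
Log2 level of Drd4 and Adra2c (vertical axes) against the mean log2 level of 8 hippocampal principal neuron markers (horizontal axis), with 1 point per array, colours for the Con, MS2 and MS5 groups, and circles and squares for slides 1 and 2. The single array at a marker mean of 10.19, MS2 replicate 4, is the highest in Drd4 at 7.99 and the lowest in Adra2c at 11.38.

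The extremes of Drd4 and Adra2c thus fell on 1 array, the one that was also lowest in principal neuron markers. There Neurod6, a transcription factor of pyramidal neurons, stood at 10.02, and Pmch, which encodes melanin-concentrating hormone of the lateral hypothalamus, at 13.33. The mean of 8 thalamus and hypothalamus markers, 6 of which were well above background on all arrays, was 10.90 there and 7.54 to 9.55 elsewhere. The part of these markers in the Drd4 and Adra2c levels was not tested.

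For Adrb1, which couples noradrenaline to cyclic AMP in neurons, the probesets were compared separately. Probeset A_51_P203827 measured 7.05, 7.14, 7.18, 6.86 and 7.12 in Con, 7.03, 7.12, 7.002, 7.13 and 7.16 in MS2, and 7.31, 7.19, 7.07, 7.19 and 7.17 in MS5. On it 4 of 5 MS5 arrays lay above every MS2 array and 3 of 5 above every Con array. The difference of MS5 from Con was 0.12 ± 0.06 (SE, log2), with a limma p of 0.0742 and an exact permutation p of 0.119, and that from MS2 was 0.10 with an exact p of 0.0794. MS5 minus Con was 0.22 within slide 1 and 0.01 within slide 2. This probeset was dim, and MS5 minus Con was 0.19 with the offset at 0 and 0.26 with the processed signal. Neither passed the call. Probeset A_52_P322181 measured 10.02, 9.74, 9.88, 9.79 and 9.83 in Con, 9.84, 9.73, 9.50, 9.86 and 9.94 in MS2, and 9.88, 9.98, 9.76, 9.99 and 9.83 in MS5. The groups overlapped there, MS5 differing from Con by 0.04 with an exact p of 0.603. Both probesets gave MS5 the highest mean, and neither passed the call in any contrast. Arfgap2 (r = 0.896), Zrsr2 (0.896) and Ap2m1 (0.894) were most like the first, and Dclk1 (0.924), Naa38 (0.916) and Krt77 (0.915) the second.

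**Figure D4:**
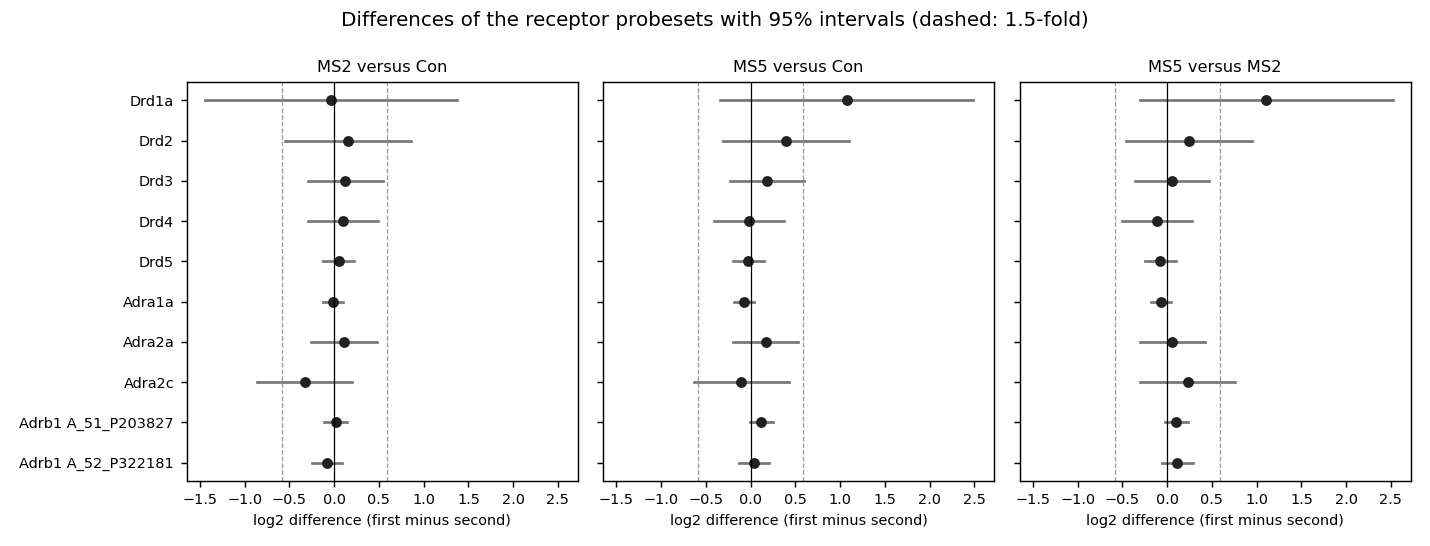
Log2 difference of each receptor probeset in MS2 versus Con, MS5 versus Con and MS5 versus MS2 (horizontal axis, first group minus second), with the 95% interval from limma as a line and 1.5-fold as dashed lines. Every interval includes 0, and those of Drd1a are the widest, from -0.34 to 2.48 in MS5 versus Con.

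The precision therefore differed widely between receptors. The SD within groups was 1.15 for Drd1a, higher than that of 99.9% of all probesets, 0.57 for Drd2 (98.9%), 0.43 for Adra2c (97.7%), 0.34 for Drd3 (95.7%), 0.32 for Drd4 (95%) and 0.30 for Adra2a (94.2%). It was 0.13 for Drd5, 0.08 for Adra1a and 0.10 and 0.13 for the Adrb1 probesets, near the median of 0.11 over all probesets. The intervals of Drd4, Drd5, Adra1a, Adra2a and Adrb1 stayed within 1.5-fold in every contrast. For Adra1a the offset shrinks differences, so its narrow interval does not measure precision alone. The intervals of Drd1a, Drd2, Drd3 and Adra2c reached past 1.5-fold in at least 1 contrast, so a 1.5-fold difference in these 4 genes lay within the error.

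The other adrenergic receptors gave the same picture. Of Adra1b, Adra1d, Adra2b and Adrb3, 0 of 4 passed the call in any contrast, and the median differences were -0.07 in MS2 versus Con, -0.06 in MS5 versus Con and 0.06 in MS5 versus MS2 (log2). Adra1d, an alpha-1 receptor abundant in hippocampus, had the largest difference, -0.31 ± 0.23 (SE, log2) in MS2 versus Con with an exact permutation p of 0.373. Its lowest level, 7.90, was on MS2 replicate 4, where the other MS2 arrays measured 8.69 to 9.43. Adra1b differed from Con by 0.08 in MS2 and -0.02 in MS5, Adra2b by -0.05 and 0.08, and Adrb3 by -0.10 and -0.10. These 4 were well above background on all 15 arrays.

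For catecholamine synthesis, storage, uptake and breakdown, 13 genes were measured to set the receptors beside their transmitters. In each contrast 0 of 13 passed the call, with median differences of 0.15, 0.10 and -0.13 (log2) in MS2 versus Con, MS5 versus Con and MS5 versus MS2. Th, the rate-limiting enzyme of catecholamine synthesis, measured 9.69 to 10.23 in Con, 9.70 to 11.84 in MS2 and 9.74 to 10.37 in MS5, and its highest array was MS2 replicate 4. Slc6a3, the dopamine transporter of midbrain dopamine neurons, measured 12.36 on that array and 7.60 to 8.65 on the 14 others, so its difference of 0.84 ± 0.68 (SE, log2) in MS2 versus Con, with an exact permutation p of 0.659, rested on 1 pup. Ddc, which makes dopamine from L-DOPA, and Slc18a2, which loads monoamines into vesicles, were also highest there, at 11.26 and 11.72. Ddc differed from Con by 0.31 in MS2 and 0.25 in MS5, and Slc18a2 by 0.15 and -0.12.

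Of the remaining enzymes and transporters, Dbh, which makes noradrenaline, differed from Con by 0.06 in MS2 and 0.08 in MS5, Pnmt, which makes adrenaline, by 0.06 and 0.04, and Gch1, which makes the cofactor of Th, by 0.22 and 0.10. The breakdown enzyme Maoa differed from Con by 0.31 in MS2 (exact permutation p = 0.0238, adjusted limma p = 0.97) and 0.12 in MS5, and Maob by 0.05 and -0.08. The highest Maoa level, 11.03, was again on MS2 replicate 4. Of the low-affinity uptake carriers, Slc22a3 differed by 0.14 and 0.13 and Slc29a4 by -0.29 and -0.31 (exact permutation p = 0.0476 in MS5). The vesicular carrier Slc18a1 differed by -0.07 in MS2 and -0.24 ± 0.07 (SE, log2) in MS5, with an exact permutation p of 0.0238 and an adjusted limma p of 1. It was well above background on 11 arrays, 5 in Con, 4 in MS2 and 2 in MS5, and passed the call when the offset was 0, at -0.67. Slc6a2, the noradrenaline transporter, which locus coeruleus neurons express in their cell bodies, was well above background on 4 of 15 arrays, and its differences from Con were 0.07 and 0.13.

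**Figure D5:**
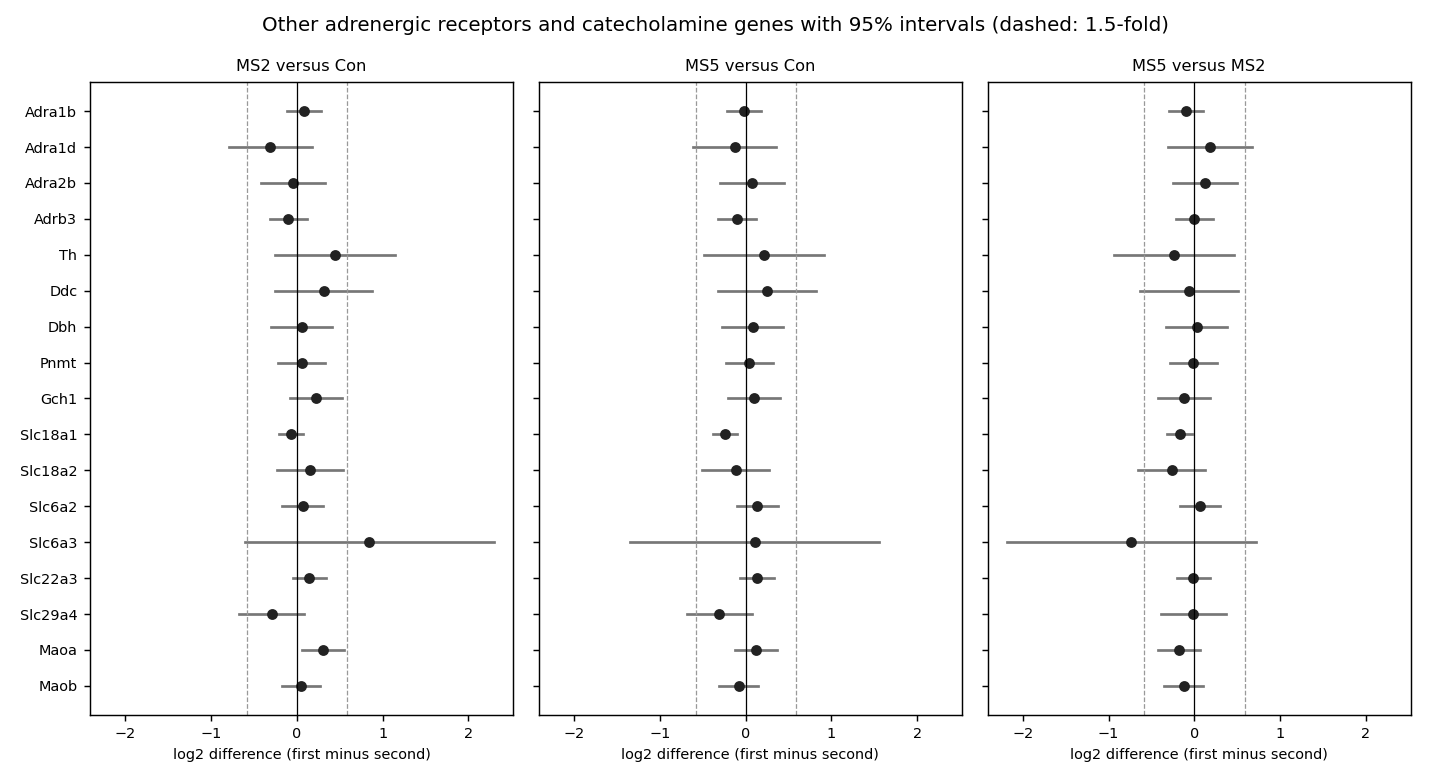
Log2 difference of 4 other adrenergic receptors and 13 catecholamine genes in the 3 contrasts (horizontal axis, first group minus second), with the 95% interval from limma as a line and 1.5-fold as dashed lines. Slc18a1 in MS5 versus Con (-0.24) and in MS5 versus MS2 (-0.17) and Maoa in MS2 versus Con (0.31) have intervals that leave out 0, and these differences lie inside 1.5-fold.

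Downstream of the receptors, 0 of 23 signalling partners (G proteins, adenylyl cyclases, receptor kinases, arrestins, RGS proteins, receptor-interacting proteins and potassium channels opened by Gi) passed the call in any contrast, with median differences of 0.03, 0.06 and 0.01 (log2). The largest in MS5 versus Con were Ppp1r1b at 0.78 ± 0.95 (SE) and Rgs9 at 0.68 ± 0.65, which are also markers in the striatal list, and the same pair was largest in MS5 versus MS2 at 0.86 and 0.57. Their exact permutation p lay between 0.302 and 0.484. In MS2 versus Con the largest were Kcnj9, a channel subunit, at 0.24 and Adcy1, a calcium-stimulated adenylyl cyclase, at 0.14. Over the 40 genes of these 3 groups, 3, 3 and 2 had an unadjusted limma p under 0.05 in MS2 versus Con, MS5 versus Con and MS5 versus MS2, beside 4.17%, 3.91% and 3.97% of all probesets. In MS2 versus Con the groups did not overlap at 1 of the 40, beside 0.699% of all probesets. This was Dnajc14, which encodes a chaperone that binds the D1 receptor and was named after its values were seen. It measured 8.71 to 8.83 in Con and 8.56 to 8.65 in MS2, a difference of -0.14 with an exact permutation p of 0.00794, the smallest that 5 arrays against 5 can give, and an adjusted limma p of 0.97.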

How the data were processed

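Total RNA of 15 hippocampal samples was hybridized to 1-colour Agilent arrays of 62976 spots. The scanner files hold intensity per spot, deposited by the authors without normalization between arrays, with scanner flags as other columns (well above background, saturated, outlier), and they place probes on mm9. The authors also deposited log2 values that they had background-adjusted (normexp, offset 50) and quantile normalized; the same steps on the first spot of each probe gave these log2 values at all 55821 probes within 5e-09. The 9 miR arrays of the series carry no receptor probes and were not used here.

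The analysis ran in R 4.3.3 with limma 3.58.1. Mean spot signals were adjusted for their median local background by normexp with an offset of 50, quantile normalized between arrays and converted to log2. After removal of the 3671 control spots, values of repeated spots were averaged per probe, which gave 55681 probesets. Groups were taken from the sample labels. A single limma fit covered the 3 groups, and p were adjusted by Benjamini-Hochberg across the 55681 probesets. Single probesets were also compared by a two-sided exact permutation test of the difference in means (252 assignments, smallest p 0.00794). Replicates are separate pups, and the number of arrays limited the precision. The median spot signal was 51.0 to 127.9, and 67.1% to 79.0% of spots per array were well above background. The arrays were scanned as 2 slides, with 8 and 7 arrays.

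Genes of the related lists were each represented by their brightest probeset. The text names every receptor probeset, every gene of the lists of other adrenergic receptors and of catecholamine genes, the signalling partners that passed the call or had the 2 largest differences in a contrast, the 3 genes most like each receptor, and 5 genes used to check sex. Some genes this rule would name are not reported here. The receptors and lists were chosen with earlier results of these data known. Of the 10 probesets, 10 matched a RefSeq transcript by accession, Drd1a under its present symbol Drd1. Probe sequences were copied from the scanner files, and pairs were aligned without gaps over at least 30 bases. The steps were tested on simulated data. The alternatives tried were weights for the arrays, normexp with an offset of 0, the processed signal of the scanner at a common 75th percentile, the values of the deposited table, a filter that kept probesets well above background throughout a group, the slide as a block and each slide alone, fits of 2 groups only, the first spot of a probe, averages over the probesets of a gene, and fits without each array. Leaving out the 5 arrays highest in striatal markers, and leaving out MS2 replicates 4 and 5 with MS5 replicate 9, were chosen after seeing the data.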

Additional observations from a re-analysis of the deposited data

Results flagged for a closer look

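Within each group of 5 arrays, the highest and the lowest level of each receptor probeset and of 4 marker lists were set against the nearest other array by Dixon's criterion, which flags about 1 in 20 groups by chance. Of 30 probeset and group combinations 5 passed, and of 12 marker list and group combinations 5 passed. The 4 lists were those of striatal projection, catecholamine and hippocampal principal neurons, and of thalamus and hypothalamus, whose arrays are described above. The other marker lists were not put to this criterion. The combinations share the same arrays and are not independent, so these counts cannot be set against 1 in 20.

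Control replicate 19 stood apart in Drd1a, at 10.72 with the nearest control at 8.20, and in Drd2, at 7.97 with the nearest at 6.90. The mean of the striatal projection neuron markers was 13.15 on the same array, with the nearest control at 10.85. MS2 replicate 5 stood apart in Drd1a, at 10.56 with the nearest MS2 array at 8.18, and in the striatal markers, at 13.33 with the nearest at 11.11. In MS5, where 3 arrays were high, none stood apart by this criterion.

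MS2 replicate 4 stood apart in Drd4, at 7.99 with the nearest MS2 array at 7.16, and in Adra2c, at 11.38 with the nearest at 12.80. On that array the mean of hippocampal principal neuron markers was 10.19 (nearest 12.25), that of catecholamine neuron markers 8.18 (nearest 7.33) and that of thalamus and hypothalamus markers 10.90 (nearest 8.41). The part of these markers in the receptor levels was not tested.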

How the results depend on the processing

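No receptor probeset passed the call in MS2 versus Con under any of 13 other settings or 15 fits without 1 array. In MS5 versus Con 2 passed within slide 1 (Drd1a, Drd2) and 1 without MS2 replicates 4 and 5 and MS5 replicate 9 (Drd1a, 1.34), and the range without 1 array was 0 to 1. In MS5 versus MS2 1 passed with array weights (Drd1a), 2 within slide 1 (Drd1a, Drd2), 1 within slide 2 (Drd4), and 2 without those 3 arrays (Drd1a, 1.83; Drd2, 0.78), and the range without 1 array was 0 to 1. Of the 40 related genes, 2 passed in MS2 versus Con within slide 2 (Adra1d, Th). In MS5 versus Con 1 passed with an offset of 0 and 1 with the processed signal (Slc18a1 in both), and 2 within slide 1 (Ddc, Rgs9). In MS5 versus MS2 1 passed with the processed signal (Slc18a1), 3 within slide 1 (Ddc, Adcy5, Rgs9), 2 within slide 2 (Adra1d, Th) and 1 without those 3 arrays (Rgs9). Without 1 array the related count was 0 in every contrast. Within a slide the groups held 2 or 3 arrays, and the cause of these changes was not tested. The Con arrays of slide 2 were replicates 16 and 19, and its MS2 arrays were replicates 4 and 5. Of 390 values under other settings 365 kept their place, 16 moved by more than the spread between arrays and 9 passed the call only there. The sign differed from the main value at 33 of the 390, among them Drd2 in MS5 versus Con (0.40, and -0.13 within slide 2) and in MS5 versus MS2 (0.24, and -0.52 within slide 2) and Drd4 in MS5 versus MS2 (-0.11, and 0.43 within slide 1), and at 29 of 450 without 1 array. Drd4 passed the call within slide 2 with its main sign, and no value past the call had the opposite sign. Over all probesets the calls ranged from 7 to 522 in MS2 versus Con (13 in the main setting), 61 to 623 in MS5 versus Con (127) and 15 to 592 in MS5 versus MS2 (72), highest with the processed signal, which has no offset. No paired analysis was possible because the groups compared share no replicate number and the labels do not give the litter. Any likeness between littermates was therefore not modelled. Dim receptor probesets (Drd2, Drd3, Drd4, Adra1a and Adrb1 A_51_P203827) lie close to the constant that the offset sets, which limits what their differences can show.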
